A study of Mus musculus with 28 samples.

Results

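Interferon-stimulated genes are the genes that a cell switches on after interferon binds its receptor. A list of 46 such genes was followed in RNA-seq of mouse germinal center B cells, the B cells that divide and mutate their antibody genes during an immune response. A gene was kept when it reached at least 1 CPM (counts-per-million, the reads of a gene scaled to the library's total) in 3 or more of the 28 libraries. This held for 45 of the 46 genes, among 11312 of the 23382 listed symbols. Ifi44 reached 1 CPM in 0 libraries, with a highest value of 0.467 CPM, and was not kept. Nearest above that limit were Ifit1 and Mx2, each at 1 CPM or more in 10 libraries, followed by Rsad2 in 12 and Iigp1 in 14. At the other end, 35 of the genes reached 1 CPM in all 28 libraries.

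Type I interferons signal through the receptor chains IFNAR1 and IFNAR2 and the kinases JAK1 and TYK2, which activate a transcription factor complex that contains STAT2 and IRF9. This complex binds DNA elements called interferon-stimulated response elements (ISRE), whereas genes that answer interferon gamma often carry gamma-activated sites (GAS). Many of the induced proteins block viral replication, sense viral nucleic acids or help to present antigen. TBL1XR1 is a subunit of the SMRT/NCOR corepressor complexes, which transcription factors such as BCL6, the defining repressor of germinal center B cells, bring to their target genes.

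The libraries fall into 6 genotype groups, all with the Cg1Cre(+/-) allele, in which the Ighg1 constant-region locus drives Cre in activated B cells. The D370Y group (5 libraries) is heterozygous for the Tbl1xr1 D370Y missense allele, and its control, called WT, has unmutated Tbl1xr1 (3 libraries). The ImuBcl6 D370Y group (5 libraries) adds the ImuBCL6 allele, which places BCL6 under the Iµ promoter of the antibody heavy chain locus, to heterozygous D370Y, and its control ImuBcl6 (5 libraries) has the ImuBCL6 allele with unmutated Tbl1xr1. The third pair is a group labelled Tbl1xr1 KO/KO (5 libraries) and its Cre control (5 libraries), whose genotype label is that of WT. A stranded TruSeq library kit is named only for the third pair, so the KO effect was tested within that pair. Across the pairs, the KO effect was compared with the D370Y effect. Some WT and Cre control values are set side by side without a test. The age of the mice, the number of animals behind each library and any pooling are not stated in the labels, so p-values measure the spread between libraries, which may be technical.

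The libraries held 19022495 to 37700121 reads on listed genes, and 3 reads amounted to 0.0640 to 0.133 CPM. Between 64.4% and 84.6% of the reads lay on listed genes, with the lowest share in KO replicate 3. The labels could be checked against the targeted gene only in part, since a missense allele need not change the transcript. Tbl1xr1 itself had 94.4, 105, 127, 89.7 and 93 CPM in the libraries labelled KO, against 80.6, 94.5, 85.7, 88.4 and 80.8 CPM in the Cre control libraries. No drop of the transcript is visible with the KO label, and whether counted reads could come from a deleted part was not tested. On the ImuBcl6 background, Tbl1xr1 had 94.7 to 101 CPM in ImuBcl6 D370Y and 106 to 159 CPM in ImuBcl6 libraries. Bcl6 had 422 to 512 CPM in ImuBcl6 D370Y and 522 to 590 CPM in ImuBcl6 libraries. Both genes were called lower with ImuBcl6 D370Y by limma, with 5.38% of all genes called lower, and the cause was not tested. Markers of germinal center and other B cells were present in all 6 groups. Sex-linked transcripts split the groups: Xist exceeded Ddx3y in 5 of 5 D370Y and 0 of 3 WT libraries, in 0 of 5 ImuBcl6 D370Y and 5 of 5 ImuBcl6 libraries, and in 2 of 5 KO and 4 of 5 Cre control libraries. In the D370Y and ImuBcl6 D370Y comparisons, sex cannot be told apart from genotype, and it runs in opposite directions in them.

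The stretch of DNA just upstream of the start site shows what many of these genes share. RefSeq promoter windows (GRCm38.p6, 250 bases before to 50 bases after the start) were matched to 35 of the 45 genes. An ISRE core, GAAA, any 2 bases, then GAAA again, was searched on both strands with overlapping matches counted; it was present in 15 of these 35 genes (42.9%), compared with 3.99% of all 27025 genes with a window. A GAS, TTC, any 3 bases, then GAA, was present in 9 of the 35 (25.7%), compared with 9.55% of all genes. The 250 bases before the start are printed 5′ to 3′ for 4 genes on which the comparisons turn, with ISRE core matches in capitals.
Bst2 (chr8:71537473-71537722, minus strand): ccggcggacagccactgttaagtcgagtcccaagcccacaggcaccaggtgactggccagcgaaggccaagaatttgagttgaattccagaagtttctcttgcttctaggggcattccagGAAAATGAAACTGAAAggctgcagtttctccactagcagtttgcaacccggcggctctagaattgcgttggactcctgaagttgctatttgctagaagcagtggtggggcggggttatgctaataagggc
Cxcl10 (chr5:92348890-92349139, minus strand): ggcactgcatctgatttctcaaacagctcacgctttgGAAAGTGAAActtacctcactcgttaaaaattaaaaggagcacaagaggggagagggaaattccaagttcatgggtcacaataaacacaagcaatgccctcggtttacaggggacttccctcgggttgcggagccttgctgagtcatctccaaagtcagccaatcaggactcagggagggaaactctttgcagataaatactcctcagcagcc
Ifit3 (chr19:34583279-34583528, plus strand): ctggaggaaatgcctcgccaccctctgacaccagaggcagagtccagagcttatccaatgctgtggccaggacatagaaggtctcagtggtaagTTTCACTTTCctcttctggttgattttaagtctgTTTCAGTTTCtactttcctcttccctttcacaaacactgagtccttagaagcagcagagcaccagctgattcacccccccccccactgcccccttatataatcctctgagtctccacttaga
Pml (chr9:58249787-58250036, minus strand): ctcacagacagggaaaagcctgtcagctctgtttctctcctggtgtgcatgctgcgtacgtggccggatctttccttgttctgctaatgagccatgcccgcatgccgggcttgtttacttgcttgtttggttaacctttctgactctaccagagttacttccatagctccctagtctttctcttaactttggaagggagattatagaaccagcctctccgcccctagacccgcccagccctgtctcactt
Bst2 has a pair of overlapping cores, which begin at positions -130 and -124 from the start site, Cxcl10 has 1 core and Ifit3 has 2. Pml is shown because it had the largest change with D370Y, and its 250 bases hold 0 matches.

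For 3 further genes called in a comparison, 30 bases around the match are enough to show the element.
Irgm1 (chr11:48871431-48871460, minus strand): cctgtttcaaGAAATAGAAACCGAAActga
Gbp2 (chr3:142620594-142620623, plus strand): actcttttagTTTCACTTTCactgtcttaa
Ifih1 (chr2:62646206-62646235, minus strand): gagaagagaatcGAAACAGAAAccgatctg
Irgm1 holds 2 overlapping cores from position -30, Gbp2 holds 1 core on the opposite strand at position -59, and the core of Ifih1 lies after the start site, at position 32. Of the 7 genes that rose with D370Y, 4 (57.1%) have a core in the window (Bst2, Cxcl10, Ifih1 and Irgm1), and Pml, Lgals3bp and Oasl1 have none. Among all 35 members with a window, 15 (42.9%) have a core. The difference between these shares was not tested. A match is a string of letters and does not show that a factor binds there.

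Levels differed widely between the genes. Per kilobase of exon (GENCODE M21), over all libraries, the highest were Ifi27l2a at 248 CPM per kb, the immunoproteasome subunits Psmb8 at 174 and Psmb9 at 84.4, and the peptide transporter Tap1 at 69.5 CPM per kb. Lowest among the kept genes were Rsad2 at 0.234, Mx2 at 0.239 and Ifit1 at 0.311 CPM per kb. Mx2 is annotated there as a polymorphic pseudogene. Averaged over the 45 genes, log2(CPM + 1) was 4.50 ± 0.23 in D370Y and 4.10 ± 0.12 in WT libraries (SD, n = 5 and 3). The same average was 4.81 ± 0.17 in ImuBcl6 D370Y and 4.73 ± 0.07 in ImuBcl6 libraries (SD, n = 5 each). It was 3.88 ± 0.19 in the libraries labelled KO and 3.81 ± 0.17 in the Cre control libraries (SD, n = 5 each). Only in the D370Y and WT pair did these library averages not overlap.

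A few genes separated the library sets more than the alleles did. Samd9l, a restriction factor of poxviruses, had 151, 117, 127, 194 and 197 CPM in D370Y, against 133, 139.5 and 164 CPM in WT libraries. It had 78, 60.3, 48.5, 34.6 and 60.3 CPM in ImuBcl6 D370Y, against 72.2, 48.2, 45.1, 34.9 and 27.8 CPM in ImuBcl6 libraries. Its values were 5.65, 8.91, 28.4, 5.58 and 7.14 CPM in the libraries labelled KO, against 7.96, 8.43, 5.3, 4.63 and 4.97 CPM in the Cre control libraries. WT and Cre control bear the same genotype label, yet their Samd9l values do not overlap; the library kit and any other difference between these sets cannot be told apart. Eif2ak2, which encodes the RNA-activated kinase PKR, likewise ranged from 28.3 to 31.2 CPM in WT and from 4.20 to 5.40 CPM in Cre control libraries.

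A set of interferon-stimulated genes was higher in D370Y than in WT libraries. Pml, Lgals3bp, Cxcl10, Irgm1, Oasl1, Ifih1 and Bst2 rose, by 0.49 to 1.34 on the log2(CPM + 1) scale, and no member fell. The 7 called genes are 15.9% of the 44 members tested, with 3.55% of all 10600 genes called, 2.6% higher and 0.943% lower (limma, Benjamini-Hochberg adjusted p below 0.05). Another 14 members reached an unadjusted p below 0.05 in the same direction without passing the adjusted threshold, and 0 did so downwards; edgeR called 6 and DESeq2 14 higher, each with 0 lower. The fold change was above 0 in 42 of 44 members (95.5%), compared with 45.6% of all genes, and the median was 0.38, compared with -0.02 over all genes. Every D370Y library exceeded every WT library in 14 members, a pattern found in 7.5% of all genes. WT has 3 libraries, and the number called was 3, 4 and 2 without WT replicate 1, 2 and 3 in turn. Bst2 was lost without WT replicate 2 or 3, Irgm1 without WT replicate 1 or 3, Ifih1 without any of the 3, and Lgals3bp without any of the 3 or D370Y replicate 4. The median stayed between 0.27 and 0.43 whichever library was left out.

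**Figure D1:**
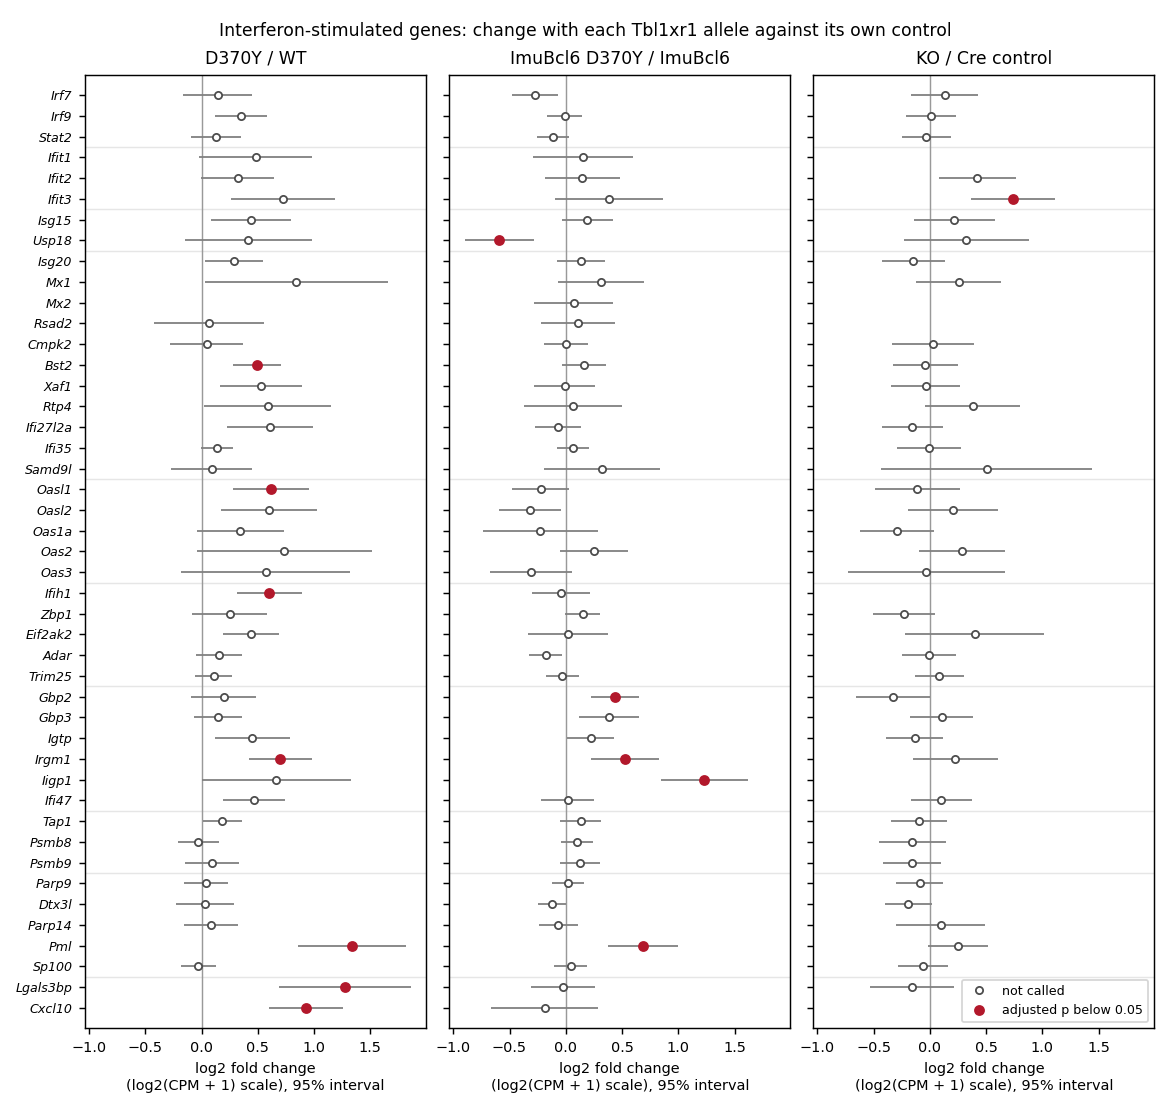
Log2 fold change on the log2(CPM + 1) scale (x axis) with its 95% interval for 45 interferon-stimulated genes (rows, grouped by role) in D370Y over WT, ImuBcl6 D370Y over ImuBcl6, and KO over Cre control. Red points mark adjusted p below 0.05: 7 genes in the first panel, 5 in the second and 1 in the third, and genes without a point were not tested.

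On the ImuBcl6 background, 4 members were higher with D370Y, 3 of them interferon-inducible GTPases. Iigp1, Pml, Irgm1 and Gbp2 rose, by 0.44 to 1.23, and Usp18 fell by 0.59. These are 4 and 1 of 45 members tested, or 8.89% and 2.22%, with 8.18% of all 10784 genes called, 2.8% higher and 5.38% lower. The median of the members was 0.06, with -0.01 over all genes, and 28 of 45 fold changes were above 0 (62.2%, compared with 47.9% of all genes). Only Iigp1 and Pml were higher in every ImuBcl6 D370Y library than in every ImuBcl6 library, a pattern found in 3.32% of all genes. The number that rose was 2 without ImuBcl6 replicate 3, where Gbp2 and Irgm1 were lost, and Usp18 was not called without ImuBcl6 D370Y replicate 2, ImuBcl6 replicate 3 or ImuBcl6 replicate 4. Without ImuBcl6 D370Y replicate 5, Irf7 also fell, which made 2 lower. When CPM were recomputed over the listed genes, the calls over all genes split into 359 higher and 446 lower, against 302 and 580 as deposited, and the members' counts remained 4 and 1.

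In the libraries labelled KO, 1 interferon-stimulated gene was called against the Cre control libraries. Ifit3, which encodes a protein of the IFIT complexes on viral RNA, rose by 0.74, and 0 members fell. The 1 call is 2.56% of the 39 members tested, with 1.39% of all 10514 genes called, 0.476% higher and 0.913% lower. Without KO replicate 3, 449 of all genes were called, compared with 146 with it (233 higher and 216 lower, compared with 50 and 96), the median over all genes was 0.00, and Ifit3 was not called. At an unadjusted p below 0.05, 2 members were higher and 1 lower, while edgeR called 0 and DESeq2 1 higher, each with 0 lower. The median was -0.01, with -0.06 over all genes, and 19 of 39 fold changes were above 0 (48.7%, compared with 30.2% of all genes). When CPM were recomputed over the listed genes, 26 of 39 were above 0, and the median was 0.05, with -0.002 over all genes. The share of all genes above 0 on that scale was not computed, and 30.2% does not apply to it. That recalculation also changed the calls over all genes to 114 higher and 122 lower, against 50 and 96 as deposited. No member had non-overlapping groups, with 0.742% of all genes higher and 3.49% lower without overlap. Ifit1, Mx2, Rsad2, Ifih1, Iigp1 and Cxcl10 were too low in this pair to be tested.

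**Figure D2:**
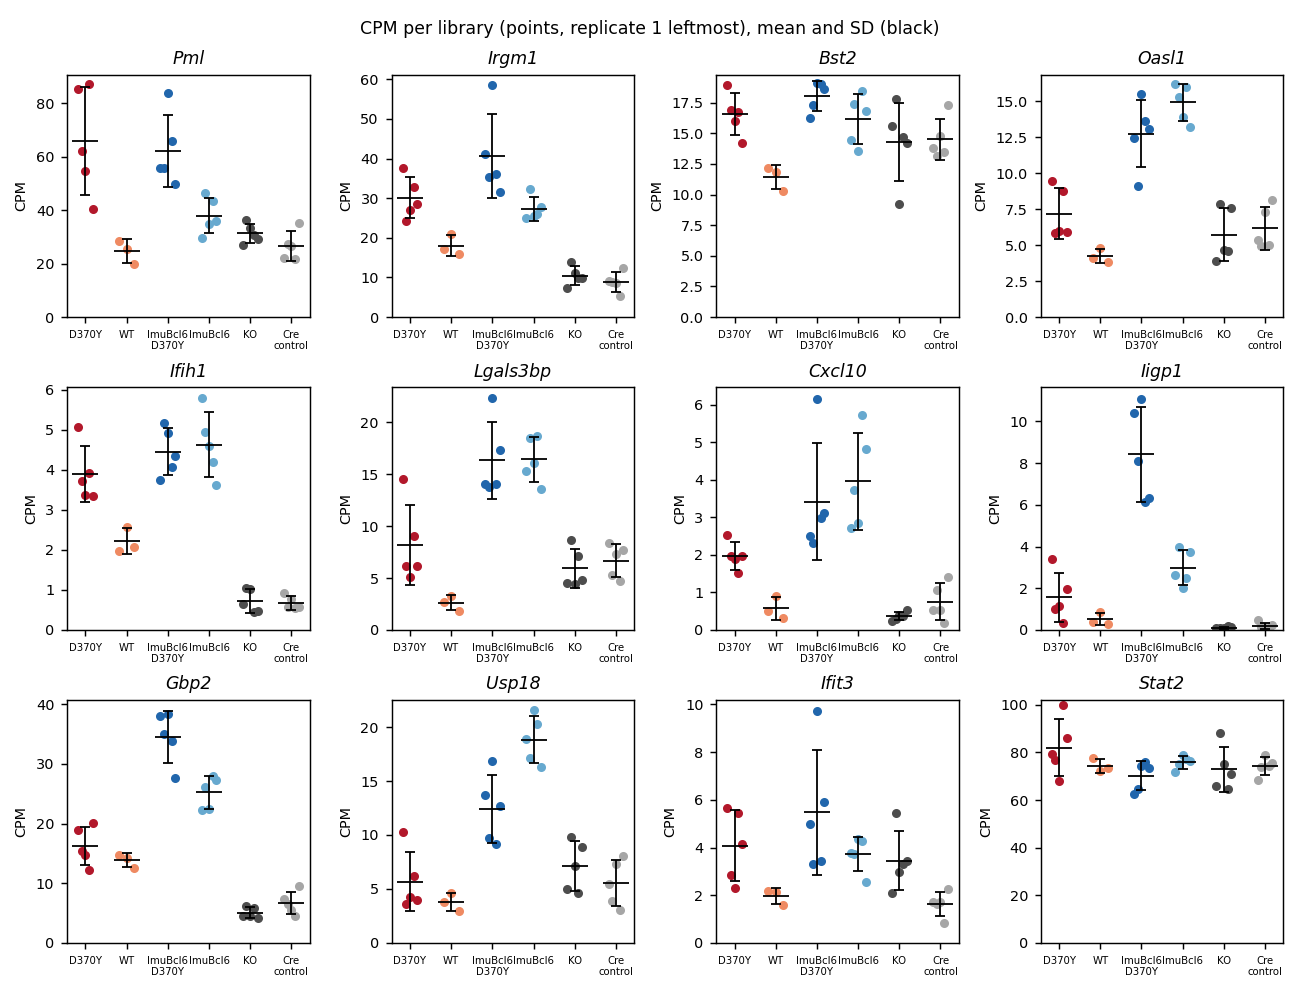
CPM (y axis, linear) of 12 interferon-stimulated genes in every library of the 6 groups, with mean and SD in black. Pml is higher in all D370Y than in all WT libraries and in all ImuBcl6 D370Y than in all ImuBcl6 libraries, and Stat2 overlaps between the groups of each pair.

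None of the 3 transcription factors that carry the interferon signal was called by limma in any pair. Stat2 had 79.4, 76.9, 67.9, 100.1 and 86.1 CPM in D370Y, against 77.8, 72.2 and 73.4 CPM in WT libraries. In ImuBcl6 D370Y it had 62.7, 64.6, 74.3, 76.1 and 73.5 CPM, against 71.6, 75.1, 79, 77.4 and 76.4 CPM in ImuBcl6 libraries. It had 65.9, 88.1, 75.3, 64.7 and 71.2 CPM in the libraries labelled KO, against 68.5, 73.9, 78.9, 74.4 and 75.4 CPM in the Cre control libraries. The groups overlap in each pair, and the log2 differences were 0.13 ± 0.10 (adjusted p = 0.54), -0.11 ± 0.07 (adjusted p = 0.315) and -0.03 ± 0.10 (adjusted p = 0.953; limma, ± SE). Their 95% intervals were -0.09 to 0.35, -0.25 to 0.03 and -0.25 to 0.18.

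Irf9, the DNA-binding partner of STAT2, had 76.4, 55.7, 55, 67.3 and 67.3 CPM in D370Y, against 52.8, 53.4 and 44 CPM in WT libraries. All 5 D370Y libraries lay above the 3 WT libraries, and the difference of 0.35 ± 0.11 did not pass the threshold (limma adjusted p = 0.104), whereas DESeq2 called Irf9 higher (0.38 on its log2 scale, adjusted p = 0.0430). Irf9 had 69.5, 69, 86.3, 77 and 78.4 CPM in ImuBcl6 D370Y, against 69.2, 77.5, 78.7, 74.5 and 82.3 CPM in ImuBcl6 libraries. It had 48.9, 63.3, 49.4, 48.2 and 51 CPM in the libraries labelled KO, against 46.9, 48.7, 57.1, 47.6 and 59 CPM in the Cre control libraries. Both of these pairs overlap, with differences of -0.01 ± 0.07 (adjusted p = 0.956) and 0.01 ± 0.11 (adjusted p = 0.985). Irf7, the factor that drives later interferon production, had 47.4, 29.8, 30.4, 41.4 and 36.2 CPM in D370Y, against 34.5, 36.8 and 28.2 CPM in WT libraries. It had 41, 37.8, 38.5, 36.3 and 53.5 CPM in ImuBcl6 D370Y, against 44.9, 50.8, 50.2, 51.9 and 52.1 CPM in ImuBcl6 libraries, where 4 of the 5 ImuBcl6 D370Y libraries lay below all ImuBcl6 libraries and 1 lay above them. Irf7 had 45.2, 59.3, 35.7, 44.6 and 56.1 CPM in the libraries labelled KO, against 39.5, 39.7, 53.3, 35.8 and 50.5 CPM in the Cre control libraries. None of the Irf7 differences, 0.14 ± 0.14, -0.28 ± 0.09 and 0.13 ± 0.14, passed the threshold (limma adjusted p = 0.633, 0.0898 and 0.883).

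Among the IFIT proteins, which bind viral RNA, Ifit3 had similar fold changes in the D370Y and KO comparisons. Ifit3 had 5.64, 2.85, 2.3, 5.45 and 4.16 CPM in D370Y, against 2.19, 2.15 and 1.6 CPM in WT libraries. It had 5.0, 3.31, 9.73, 3.44 and 5.92 CPM in ImuBcl6 D370Y, against 3.75, 3.75, 4.36, 4.28 and 2.55 CPM in ImuBcl6 libraries. It had 2.1, 5.45, 2.98, 3.31 and 3.44 CPM in the libraries labelled KO, against 1.72, 1.65, 1.73, 0.840 and 2.26 CPM in the Cre control libraries. The groups do not overlap between D370Y and WT, and between KO and Cre control only the lowest KO library lay below the highest Cre control library. The log2 differences were 0.72 ± 0.21 (adjusted p = 0.0875), 0.38 ± 0.22 (adjusted p = 0.325) and 0.74 ± 0.18 (adjusted p = 0.0452; limma, ± SE). DESeq2 also called Ifit3 higher with D370Y (1.06 on its log2 scale, adjusted p = 0.0165). The KO effect minus the D370Y effect was 0.01 ± 0.31 (95% interval -0.62 to 0.65, limma unadjusted p = 0.962). The call in the KO comparison was lost in 6 of 9 alternative settings and in 8 of 10 fits that left out 1 library, with adjusted p-values up to 0.194. Ifit3 has a near-identical neighbour, Ifit3b, and reads could have been shared between them.

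Ifit1 lay close to the limit of detection, with 2.73, 0.797, 1.07, 1.83 and 1.46 CPM in D370Y, against 0.947, 1.25 and 0.310 CPM in WT libraries. In ImuBcl6 D370Y it had 1.04, 0.768, 2.25, 0.409 and 1.29 CPM, against 1.19, 1.37, 0.809, 0.516 and 0.566 CPM in ImuBcl6 libraries. Both pairs overlap, with differences of 0.48 ± 0.23 (adjusted p = 0.294) and 0.15 ± 0.21 (adjusted p = 0.715; limma). Values of Ifit1 were 0.222, 0.712, 0.595, 0.303 and 0.131 CPM in the libraries labelled KO, against 0.161, 0.131, 0.0524, 0.0271 and 0.215 CPM in the Cre control libraries, too low for the test. Ifit2 was not called in any pair, with differences of 0.32 ± 0.15, 0.15 ± 0.15 and 0.42 ± 0.16.

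The ISG15 system is represented by the ubiquitin-like modifier Isg15 and the protease Usp18, which removes ISG15 and dampens interferon receptor signalling. Isg15 had 11.4, 7.13, 7.41, 6.74 and 6.57 CPM in D370Y, against 5.89, 6.28 and 4.21 CPM in WT libraries, without overlap. It had 9.71, 10.3, 13.9, 9.4 and 10.4 CPM in ImuBcl6 D370Y, against 9.45, 8.55, 10.6, 8.55 and 8.98 CPM in ImuBcl6 libraries. Isg15 had 7.27, 10.6, 6.05, 5.8 and 11.3 CPM in the libraries labelled KO, against 7.05, 5.08, 7.73, 5.69 and 8.22 CPM in the Cre control libraries. The groups of these pairs overlap, and none of the differences, 0.44 ± 0.16, 0.19 ± 0.11 and 0.22 ± 0.17, passed the threshold (limma adjusted p = 0.169, 0.298 and 0.829).

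Usp18 (chromosome 6, 121245906 to 121270917, GRCm38) fell on the ImuBcl6 background. It had 13.7, 9.69, 16.8, 9.16 and 12.7 CPM in ImuBcl6 D370Y, against 18.9, 17.2, 21.6, 20.3 and 16.3 CPM in ImuBcl6 libraries. Of the 5 ImuBcl6 D370Y libraries, 4 lay below all 5 ImuBcl6 libraries, and replicate 3 lay above the lowest of them. The difference was -0.59 ± 0.14 (SE; limma adjusted p = 0.0248). Without the ImuBCL6 allele, Usp18 had 10.3, 3.65, 4.22, 6.23 and 3.99 CPM in D370Y, against 3.74, 4.65 and 2.93 CPM in WT libraries. The libraries labelled KO had 5.03, 9.8, 7.17, 4.62 and 8.92 CPM, against 5.43, 3.9, 7.34, 3.04 and 8.09 CPM in the Cre control libraries. These pairs overlap, with differences of 0.42 ± 0.26 (adjusted p = 0.423) and 0.32 ± 0.25 (adjusted p = 0.834).

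Antiviral effectors rose with D370Y in 1 of 10 members tested, with 2.6% of all genes called higher. That member is Bst2 (chromosome 8, 71534255 to 71537456, GRCm38), which encodes tetherin, a membrane protein that holds budding virus at the cell surface. Bst2 had 18.9, 16.9, 16, 16.7 and 14.2 CPM in D370Y, against 12.1, 11.9 and 10.3 CPM in WT libraries. The 5 D370Y libraries all lay above the 3 WT libraries, and the rise was 0.49 ± 0.10 (SE; limma adjusted p = 0.0143). It had 16.3, 17.3, 19.1, 19 and 18.6 CPM in ImuBcl6 D370Y, against 14.5, 17.4, 13.6, 18.5 and 16.8 CPM in ImuBcl6 libraries. Bst2 had 15.6, 17.8, 9.21, 14.7 and 14.2 CPM in the libraries labelled KO, against 13.8, 13.1, 14.8, 13.5 and 17.3 CPM in the Cre control libraries. Both of these pairs overlap, with differences of 0.16 ± 0.09 (adjusted p = 0.309) and -0.04 ± 0.14 (adjusted p = 0.953).

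Mx1, a dynamin-like GTPase against influenza virus, had 4.75, 1.72, 1.96, 8.1 and 2.06 CPM in D370Y, against 1.51, 2.07 and 0.665 CPM in WT libraries. D370Y replicate 4 was highest, and D370Y replicates 2, 3 and 5 lay within the range of WT. Mx1 had 5.1, 4.23, 9.08, 4.83 and 5.52 CPM in ImuBcl6 D370Y, against 4.27, 5.63, 4.49, 4.52 and 2.93 CPM in ImuBcl6 libraries, and 0.863, 2.55, 1.83, 0.732 and 1.31 CPM in the libraries labelled KO, against 0.700, 0.891, 1.23, 0.732 and 1.48 CPM in the Cre control libraries. Each pair overlaps, and the differences of 0.84 ± 0.37, 0.31 ± 0.18 and 0.26 ± 0.18 did not pass the threshold (limma adjusted p = 0.259, 0.314 and 0.792). Of the other effectors, Ifi27l2a, Xaf1 and Ifi35 were higher in every D370Y than in every WT library without being called, with differences of 0.60 ± 0.17, 0.53 ± 0.17 and 0.14 ± 0.07. Isg20, Mx1 and Rtp4 also had unadjusted p-values below 0.05 in D370Y (0.0335, 0.0439 and 0.0433). Rsad2 and Cmpk2, neighbours on chromosome 12, had differences of 0.07 ± 0.23 and 0.04 ± 0.15. Mx2, a close copy of Mx1 annotated as a polymorphic pseudogene, could be tested only in the ImuBcl6 pair, with a difference of 0.07 ± 0.16. No antiviral effector was called in the ImuBcl6 comparison (0 of 11, with 8.18% of all genes called) or in the KO comparison (0 of 9, with 1.39% of all genes called) by limma.

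The OAS proteins make the messenger molecule that activates RNase L, and the OASL proteins are their close relatives. Oasl1 had 9.47, 5.83, 5.99, 8.76 and 5.93 CPM in D370Y, against 4.09, 4.82 and 3.86 CPM in WT libraries, without overlap. It rose by 0.62 ± 0.16 (SE; limma adjusted p = 0.0477), a call lost in 4 of 8 alternative settings and in 5 of 8 fits that left out 1 library. Oasl1 had 12.4, 9.12, 15.5, 13.6 and 13.1 CPM in ImuBcl6 D370Y, against 16.2, 15.3, 13.9, 16 and 13.2 CPM in ImuBcl6 libraries, and 3.9, 7.83, 4.69, 4.57 and 7.61 CPM in the libraries labelled KO, against 5.35, 4.95, 7.31, 5.01 and 8.17 CPM in the Cre control libraries. Both pairs overlap, with differences of -0.22 ± 0.12 (adjusted p = 0.265) and -0.11 ± 0.18 (adjusted p = 0.904).

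Oasl2 had 8.33, 4.65, 3.3, 5.84 and 5.02 CPM in D370Y, against 3.27, 3.57 and 2.57 CPM in WT libraries. In ImuBcl6 D370Y it had 9.89, 7.11, 12.5, 7.65 and 10.3 CPM, against 12.4, 11.9, 12.5, 12.3 and 10.3 CPM in ImuBcl6 libraries. It had 2.93, 5.55, 2.98, 2.62 and 3.73 CPM in the libraries labelled KO, against 3.61, 2.25, 3.09, 1.68 and 4.22 CPM in the Cre control libraries. All 3 pairs overlap, and the differences of 0.60 ± 0.20, -0.32 ± 0.13 and 0.21 ± 0.19 did not pass the threshold (limma adjusted p = 0.125, 0.143 and 0.865), whereas DESeq2 called the first (0.81 on its log2 scale, adjusted p = 0.0467). Over the family, 5 of 5 fold changes were above 0 in D370Y and 1 of 5 in ImuBcl6 D370Y. Oas1a, Oas2 and Oas3 were not called in any pair; Oas1a belongs to a cluster of close copies between which reads could have been split.

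Among sensors of foreign nucleic acid, Ifih1, which encodes the double-stranded RNA sensor MDA5, rose with D370Y. It had 5.08, 3.73, 3.38, 3.93 and 3.35 CPM in D370Y, against 1.98, 2.58 and 2.08 CPM in WT libraries, without overlap. The rise was 0.60 ± 0.13 (SE; limma adjusted p = 0.027). Ifih1 had 3.76, 5.17, 4.92, 4.06 and 4.35 CPM in ImuBcl6 D370Y, against 5.79, 4.96, 4.59, 4.2 and 3.63 CPM in ImuBcl6 libraries, which overlap (-0.04 ± 0.12, adjusted p = 0.872). It had 0.641, 1.06, 1.02, 0.454 and 0.472 CPM in the libraries labelled KO, against 0.915, 0.576, 0.786, 0.542 and 0.564 CPM in the Cre control libraries, and was not tested.

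Eif2ak2 had 50.1, 37.7, 31.6, 41.7 and 42 CPM in D370Y, against 31.2, 28.3 and 28.5 CPM in WT libraries, without overlap, and just missed the threshold (0.44 ± 0.12, limma adjusted p = 0.0564). Adar, the editor that turns adenosine into inosine in double-stranded RNA, had 162, 134, 122, 167 and 144 CPM in D370Y, against 130.03, 135 and 125 CPM in WT libraries. It had 133, 129, 163, 158 and 152 CPM in ImuBcl6 D370Y, against 163, 166, 171, 168 and 163 CPM in ImuBcl6 libraries, and 142, 180.3, 136, 129 and 153 CPM in the libraries labelled KO, against 125, 147, 167, 145 and 159.99 CPM in the Cre control libraries. The groups overlap, or touch at the edge in the ImuBcl6 pair, and the differences of 0.16 ± 0.09, -0.18 ± 0.07 and -0.01 ± 0.11 were not called (adjusted p = 0.4, 0.121 and 0.985). Zbp1 and Trim25 were not called in any pair either.

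The interferon-inducible GTPases, which attack the vacuoles of intracellular parasites and bacteria, had calls in both D370Y comparisons. At the deposited scaling, all 6 had fold changes above 0 in D370Y and in ImuBcl6 D370Y, compared with 45.6% and 47.9% of all genes. Of these 6, 1 and 3 were called, with 2.6% and 2.8% of all genes called higher. Irgm1 (chromosome 11, 48861968 to 48871683, GRCm38), a regulator of the other GTPases, had 37.7, 24.4, 27.1, 32.8 and 28.6 CPM in D370Y, against 17.3, 20.9 and 16 CPM in WT libraries. It had 41, 35.4, 58.5, 36.1 and 31.7 CPM in ImuBcl6 D370Y, against 24.9, 32.3, 25.4, 26 and 27.8 CPM in ImuBcl6 libraries. The first pair does not overlap, and in the second only ImuBcl6 D370Y replicate 5 lay below an ImuBcl6 library. Irgm1 rose by 0.70 ± 0.13 with D370Y (adjusted p = 0.00978) and by 0.53 ± 0.14 with ImuBcl6 D370Y (adjusted p = 0.0353; limma, ± SE). The second call was lost in 2 of 8 alternative settings and without any one of ImuBcl6 D370Y replicates 1 and 2 and of ImuBcl6 replicates 3 and 4. Irgm1 had 7.47, 13.9, 11.2, 9.94 and 9.81 CPM in the libraries labelled KO, against 9.01, 8.96, 8.7, 5.39 and 12.4 CPM in the Cre control libraries, which overlap (0.23 ± 0.18, adjusted p = 0.824).

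Iigp1 had the largest rise on the ImuBcl6 background. It had 10.4, 8.11, 11.1, 6.16 and 6.31 CPM in ImuBcl6 D370Y, against 2.66, 3.99, 2.04, 2.51 and 3.73 CPM in ImuBcl6 libraries. The groups lie apart, and the rise was 1.23 ± 0.18 (SE; limma adjusted p = 0.00228), a call that held in all 8 alternative settings and all 10 fits that left out 1 library. Without the ImuBCL6 allele, Iigp1 had 3.39, 1.01, 1.15, 0.350 and 1.98 CPM in D370Y, against 0.387, 0.861 and 0.310 CPM in WT libraries, which overlap (0.66 ± 0.30, adjusted p = 0.27). In the libraries labelled KO it had 0.0740, 0.0737, 0.0952, 0.177 and 0.157 CPM, against 0.457, 0.131, 0.0786, 0.0813 and 0.242 CPM in the Cre control libraries, below 0.5 CPM in both groups and not tested.

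Gbp2, a guanylate-binding protein, had 38, 35, 38.4, 33.9 and 27.6 CPM in ImuBcl6 D370Y, against 22.2, 26.1, 22.5, 27.9 and 27.4 CPM in ImuBcl6 libraries. Of the 5 ImuBcl6 D370Y libraries, 4 lay above all ImuBcl6 libraries, and the rise was 0.44 ± 0.10 (SE; limma adjusted p = 0.0169). It had 18.9, 15.4, 14.7, 12.1 and 20.01 CPM in D370Y, against 14.8, 14.3 and 12.6 CPM in WT libraries. Gbp2 had 4.54, 6.19, 4.5, 5.83 and 4.12 CPM in the libraries labelled KO, against 7.43, 6.5, 5.51, 4.55 and 9.51 CPM in the Cre control libraries. Those pairs overlap, with differences of 0.19 ± 0.14 (adjusted p = 0.475) and -0.33 ± 0.16 (adjusted p = 0.539). Igtp and Ifi47 had differences of 0.45 ± 0.15 and 0.47 ± 0.13 in D370Y and of 0.22 ± 0.10 and 0.02 ± 0.11 in ImuBcl6 D370Y, and Gbp3 of 0.14 ± 0.10 and 0.38 ± 0.12, none of them called. GBP and IRG genes lie in clusters of similar copies, so that reads may have been shared within a cluster.

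Antigen processing genes were at high levels, and none was called. Psmb8 had 539, 593, 611, 475 and 579 CPM in D370Y, against 562, 594 and 551 CPM in WT libraries. In ImuBcl6 D370Y it had 621, 603, 646, 657 and 611 CPM, against 527, 611, 529, 614 and 661 CPM in ImuBcl6 libraries. It had 609.7, 587, 365, 637 and 628 CPM in the libraries labelled KO, against 613, 605, 601, 623 and 645 CPM in the Cre control libraries. The groups overlap except that KO replicate 3 lay far below the others, and this is the library with 64.4% of its reads on listed genes. The differences of -0.03 ± 0.08, 0.10 ± 0.07 and -0.16 ± 0.14 were not called (limma adjusted p = 0.885, 0.413 and 0.865).

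Tap1, which shares a promoter region with Psmb9 on chromosome 17, had 352, 312, 294, 301 and 327 CPM in D370Y, against 296, 292 and 249.6 CPM in WT libraries. It had 460.4, 449, 531, 544 and 503 CPM in ImuBcl6 D370Y, against 392, 496, 404, 484 and 501 CPM in ImuBcl6 libraries, and 355, 375, 256, 346 and 344 CPM in the libraries labelled KO, against 319, 350.2, 371, 337 and 406 CPM in the Cre control libraries. All pairs overlap, with differences of 0.19 ± 0.08, 0.13 ± 0.08 and -0.10 ± 0.12 (limma adjusted p = 0.245, 0.376 and 0.896). Psmb9 was not called in any pair.

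Pml (chromosome 9, 58218076 to 58249786, GRCm38) encodes the protein that builds nuclear bodies, and it had the largest rise with D370Y. It had 85.2, 62.1, 54.6, 87.3 and 40.5 CPM in D370Y, against 28.5, 25.6 and 20.03 CPM in WT libraries. In ImuBcl6 D370Y it had 55.6, 55.6, 83.9, 65.8 and 49.8 CPM, against 29.7, 46.3, 34.7, 43.3 and 36 CPM in ImuBcl6 libraries. In both pairs every library with D370Y lay above every control library. The rises were 1.34 ± 0.22 (adjusted p = 0.00731) and 0.69 ± 0.14 (adjusted p = 0.0122; limma, ± SE), and both calls held in all 8 alternative settings and whichever library was left out. Means were 65.9 ± 20.1 and 24.7 ± 4.32 CPM in D370Y and WT libraries, and 62.2 ± 13.5 and 38 ± 6.71 CPM in ImuBcl6 D370Y and ImuBcl6 libraries (SD, n = 5 and 3, and 5 each). Pml had 26.9, 36.4, 33.2, 30.8 and 29.4 CPM in the libraries labelled KO, against 22, 27.3, 26.7, 21.5 and 35.2 CPM in the Cre control libraries, which overlap (0.25 ± 0.13, 95% interval -0.02 to 0.51, adjusted p = 0.613).

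The other nuclear members were not called beside Pml. Sp100, another component of the same nuclear bodies, had differences of -0.03 ± 0.07, 0.04 ± 0.07 and -0.06 ± 0.11 in the D370Y, ImuBcl6 D370Y and KO comparisons. Parp9 and Dtx3l, which form a complex and share a promoter region on chromosome 16, had differences of 0.04 ± 0.09 and 0.03 ± 0.12 in D370Y, and those of Parp14 and of both genes in the other pairs lay between -0.19 and 0.10. None of these 4 genes was called in any pair.

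Both secreted members rose with D370Y. Lgals3bp (chromosome 11, 118392751 to 118402092, GRCm38), a galectin-binding glycoprotein, had 14.6, 6.12, 5.07, 9.07 and 6.14 CPM in D370Y, against 2.71, 3.31 and 1.86 CPM in WT libraries. Cxcl10 (chromosome 5, 92346638 to 92348889), a chemokine that attracts T cells through CXCR3, had 2.54, 1.97, 1.88, 1.52 and 1.98 CPM in D370Y, against 0.516, 0.904 and 0.310 CPM in WT libraries. Neither pair overlaps, and the rises were 1.27 ± 0.27 (adjusted p = 0.0251) and 0.93 ± 0.15 (adjusted p = 0.00522; limma, ± SE). Lgals3bp had 14.1, 13.7, 22.3, 14.1 and 17.3 CPM in ImuBcl6 D370Y, against 15.3, 18.5, 16, 18.7 and 13.5 CPM in ImuBcl6 libraries. Cxcl10 had 2.51, 2.33, 6.16, 2.98 and 3.11 CPM in ImuBcl6 D370Y, against 2.71, 3.72, 2.84, 5.73 and 4.81 CPM in ImuBcl6 libraries. These groups overlap, with differences of -0.02 ± 0.13 (adjusted p = 0.944) and -0.19 ± 0.22 (adjusted p = 0.658). In the libraries labelled KO, Lgals3bp had 4.56, 8.69, 4.4, 7.14 and 4.83 CPM, against 8.34, 5.32, 7.26, 4.72 and 7.68 CPM in the Cre control libraries (-0.16 ± 0.18, adjusted p = 0.886). Cxcl10 had 0.247, 0.295, 0.405, 0.379 and 0.525 CPM in the libraries labelled KO, against 0.538, 1.07, 0.524, 0.190 and 1.42 CPM in the Cre control libraries.

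The control groups themselves stood at different levels for several of these genes. Usp18, Lgals3bp, Cxcl10 and Oasl1 were higher in each of the 5 ImuBcl6 libraries than in each of the 3 WT libraries, as the values above show. So was Iigp1, with a lowest ImuBcl6 value of 2.04 CPM and a highest WT value of 0.861 CPM. Other members, among them Oasl2, Zbp1 and Irf7, lay apart in the same direction. Samd9l lay apart in the opposite direction, with a lowest WT value of 133 CPM and a highest ImuBcl6 value of 72.2 CPM. The share of all genes that lie apart between ImuBcl6 and WT libraries was not computed. ImuBcl6 and WT libraries differ in the ImuBCL6 allele, by Xist in sex, and in sequencing depth. Reads on listed genes were 31809630 to 36523514 in ImuBcl6 and 19022495 to 19429031 in WT libraries. The allele, sex and any difference between library sets cannot be told apart here, and this pair was not tested.

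Whether the D370Y effect differed with and without the ImuBCL6 allele was tested as a difference of effects, ImuBcl6 background minus WT background. Of 45 members, 0 were called in either direction, with 0.663% of all 11166 genes called, 0.0896% higher and 0.573% lower. At an unadjusted p below 0.05 there were 15 members, all lower on the ImuBcl6 background, and edgeR and DESeq2 called 1 and 4. Nearest to the threshold were Lgals3bp (-1.30 ± 0.30, adjusted p = 0.0557), Oasl1 (-0.84 ± 0.20, adjusted p = 0.0633) and Cxcl10 (-1.11 ± 0.29, adjusted p = 0.0911; limma, ± SE). Usp18, which was called lower there, had a difference of -1.005 ± 0.30 (adjusted p = 0.152). Pml had -0.65 ± 0.28 (adjusted p = 0.351), and Irgm1, called in both comparisons, had -0.17 ± 0.21 with a 95% interval of -0.61 to 0.26. The median difference was -0.33, with -0.01 over all genes, and 8 of 45 were above 0. Sex, by Xist, runs in opposite directions in these backgrounds and cannot be told apart from the ImuBCL6 allele in this difference. Sequencing depth splits by background too. Reads on listed genes were at most 22227383 in D370Y and WT and at least 31809630 in ImuBcl6 D370Y and ImuBcl6 libraries. A difference between these library sets cannot be told apart from the ImuBCL6 allele either. The call count moved with single libraries: it was 1 without D370Y replicate 1, 2 without D370Y replicate 3 or ImuBcl6 replicate 1, and 3 without D370Y replicate 5 or ImuBcl6 D370Y replicate 3.

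The KO effect minus the D370Y effect was called for 1 of 45 members, Cxcl10, lower on the KO side, with 0.145% of all 11041 genes called, 0.0272% higher and 0.118% lower. Its difference was -1.24 ± 0.23 (SE; limma adjusted p = 0.0264), and the values behind it in the KO pair lie below 1.5 CPM. The call was lost in 4 of 8 alternative settings and without D370Y replicate 1, WT replicate 1, WT replicate 3, KO replicate 1 or Cre control replicate 2, each of which left 0 calls, and 2 members were called without D370Y replicate 5. Lgals3bp had -1.43 ± 0.35 (adjusted p = 0.135) and Pml -1.09 ± 0.27 (adjusted p = 0.125), neither of them called. At an unadjusted p below 0.05 there were 15 members, all lower, and the median was -0.25, with -0.05 over all genes. A library kit is named for only 1 of these pairs, and a kit effect on the differences cannot be told apart from the alleles. Sex also differs between these pairs. Xist exceeded Ddx3y in 5 of 5 D370Y and 0 of 3 WT libraries, but in 2 of 5 KO and 4 of 5 Cre control libraries. The KO minus D370Y difference was not adjusted for sex, and the part of sex in it was not tested.

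Within most groups, 1 library stood high in many interferon-stimulated genes at once. D370Y replicate 1 held the highest value of its group for 32 of 45 members (71.1%), compared with 15.7% of all 11312 genes. ImuBcl6 D370Y replicate 3 did so for 31 members (68.9%, compared with 21.3% of all genes), and KO replicate 2 for 35 (77.8%, compared with 27.4%). Among controls, WT replicate 2 was highest for 28 (62.2%, compared with 37.2%) and Cre control replicate 5 for 31 (68.9%, compared with 20.4%). WT replicate 3 was lowest of its group for 34 members and Cre control replicate 4 for 26. In ImuBcl6, each library was highest for 7 to 12 members, while replicate 5 was lowest for 23 and replicate 1 for 16. Among D370Y libraries, Oas3 ranged from 2.61 to 12.5 CPM and Mx1 from 1.72 to 8.10 CPM. Without D370Y replicate 1, 6 members were called higher with D370Y, compared with 7 with it.

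**Figure D3:**
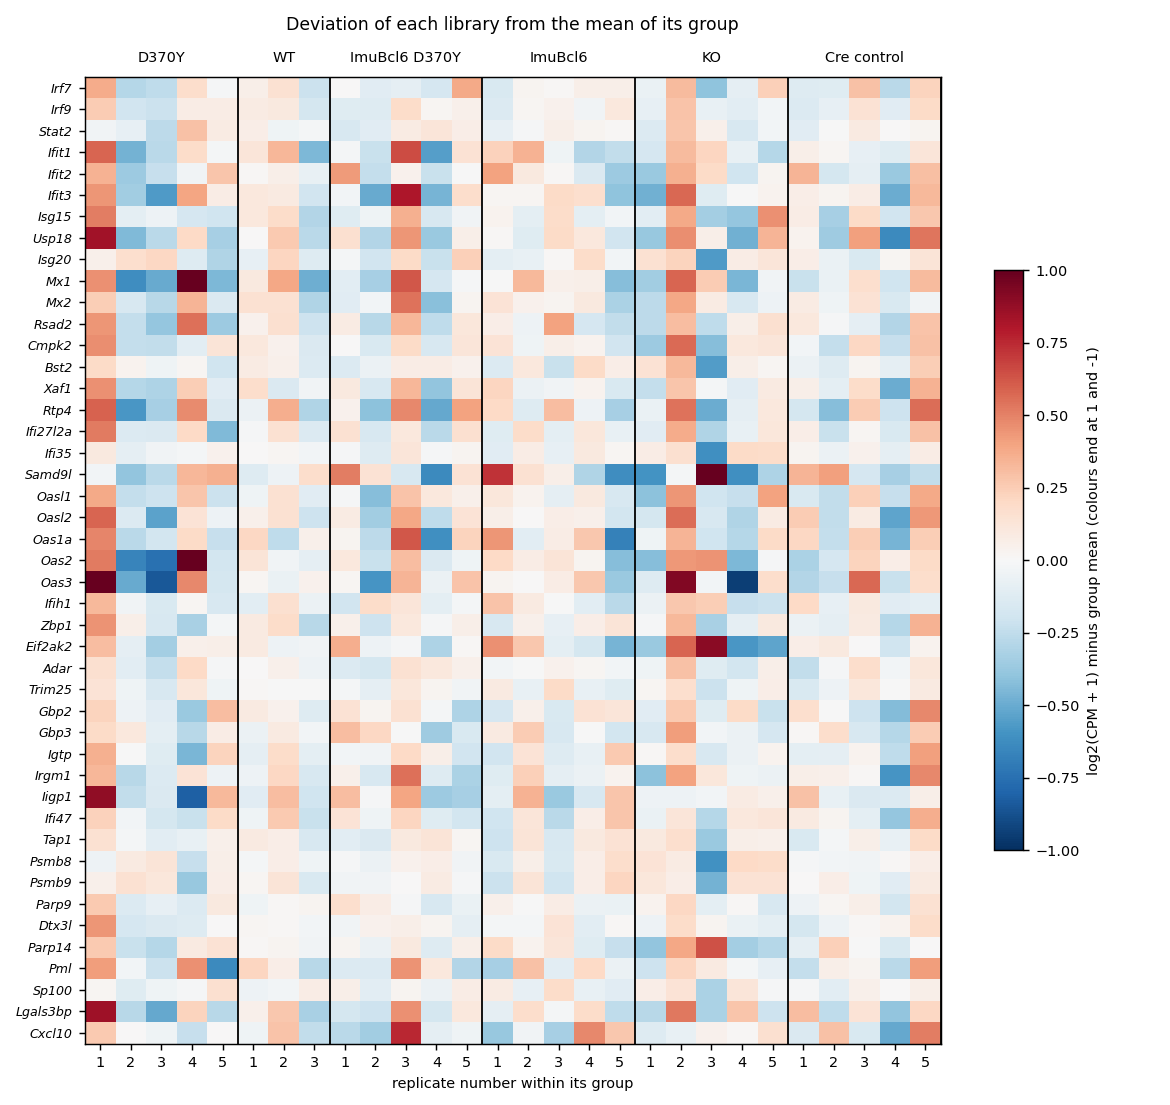
Deviation of each library (columns, replicate number within group) from the mean of its group, in log2(CPM + 1), for 45 interferon-stimulated genes (rows, by role). D370Y replicate 1, ImuBcl6 D370Y replicate 3, KO replicate 2 and Cre control replicate 5 are red over most rows, and WT replicate 3 and Cre control replicate 4 are blue over most rows.

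Upstream of these genes, no interferon gene was detected at a level that could be tested: 8 of the 10 listed ligands were found in the tables, with a highest value of 0.337 CPM in any library. Of the receptors and kinases, Il10rb, a chain shared by the receptors of interferon lambda and interleukin 10, rose with D370Y, with a mean of 33.9 CPM in D370Y and 24.5 CPM in WT libraries (0.45 ± 0.09, limma adjusted p = 0.0148). It rose with ImuBcl6 D370Y too, with means of 32.5 CPM in ImuBcl6 D370Y and 25.7 CPM in ImuBcl6 libraries (0.33 ± 0.08, adjusted p = 0.0238). Ifnar2, a chain of the type I interferon receptor, rose with ImuBcl6 D370Y (0.28 ± 0.07, adjusted p = 0.0278) and in the libraries labelled KO (0.45 ± 0.11, adjusted p = 0.0438). With D370Y alone Ifnar2 was not called (0.33 ± 0.09, adjusted p = 0.072). These calls are 1, 2 and 1 of 8 receptor and kinase genes tested in the D370Y, ImuBcl6 D370Y and KO comparisons, and 0 fell. Over all genes, 3.55%, 8.18% and 1.39% were called, with 2.6%, 2.8% and 0.476% called higher.

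Of 12 STAT and IRF genes, Irf4 rose with D370Y (0.52 ± 0.09, adjusted p = 0.00779) and Stat4 with ImuBcl6 D370Y (0.66 ± 0.12, adjusted p = 0.00661), and none was called in the KO comparison. Over all genes, 3.55%, 8.18% and 1.39% were called in the D370Y, ImuBcl6 D370Y and KO comparisons. Called higher were 2.6%, 2.8% and 0.476%, and lower 0.943%, 5.38% and 0.913%, to set beside each count in this paragraph. Of 19 nucleic acid sensors and adaptors, 3 rose with D370Y: Tlr7, an endosomal receptor for single-stranded RNA (1.20 ± 0.15, adjusted p = 0.000847), Ddx58, which encodes RIG-I (0.58 ± 0.10, adjusted p = 0.00722), and Tmem173, which encodes STING (0.31 ± 0.06, adjusted p = 0.0194). Tlr7 also rose with ImuBcl6 D370Y (0.81 ± 0.14, adjusted p = 0.00484), the 1 call of 19, and 0 of 18 were called in the KO comparison. Tlr7 is X-linked, and sex, by Xist, cannot be told apart from genotype in either of these pairs. The part of sex in the Tlr7 rises was not tested. Of 8 negative regulators, 1 was called: Socs3, a feedback inhibitor of JAK kinases, fell in the libraries labelled KO (-0.74 ± 0.13, adjusted p = 0.00344), and Usp18 is counted with the interferon-stimulated genes.

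A longer list of other interferon-inducible genes had its calls upwards with D370Y. Of 56 tested, 8 rose and 0 fell, with 2.6% of all genes called higher and 0.943% lower, among them Slfn5 (1.11 ± 0.26, adjusted p = 0.0438), Gbp7 (1.04 ± 0.16, adjusted p = 0.00378), Ifi203 (0.97 ± 0.19, adjusted p = 0.0165) and Slfn8 (0.85 ± 0.18, adjusted p = 0.0194). Ifi203 and Slfn8 have close copies with which reads may have been shared. With ImuBcl6 D370Y, 6 of 57 rose and 1 fell, with 2.8% of all genes called higher and 5.38% lower: the largest rises were Gbp7 (0.71 ± 0.14), Mndal (0.56 ± 0.16), Gbp6 (0.50 ± 0.10) and Ly6a (0.34 ± 0.09), and Ube2l6, the conjugating enzyme of ISG15, fell (-0.30 ± 0.07, adjusted p = 0.0191). In the KO comparison 0 of 48 were called (limma; 1.39% of all genes), with 3 higher and 3 lower at an unadjusted p below 0.05. The list's medians were 0.16, 0.06 and 0.00, with -0.02, -0.01 and -0.06 over all genes. MHC class I genes had 1 rise of 13 with D370Y, H2-K1 (0.29 ± 0.07), and 1 of 13 with ImuBcl6 D370Y, B2m (0.25 ± 0.06), with 2.6% and 2.8% of all genes called higher. H2-K1 resembles other class I genes, with which reads may have been shared.

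Markers of myeloid cells moved with D370Y as well. The summed level of 15 myeloid markers was 128 to 156 CPM in D370Y and 72.7 to 88.9 CPM in WT libraries. Of 11 tested, 6 rose (Lyz2, Emr1, Csf1r, Itgam, C1qa and Mpeg1) with 0 falling, compared with 2.6% of all genes called higher. The sum was 176 to 260.1 CPM in ImuBcl6 D370Y and 126 to 173 CPM in ImuBcl6 libraries, and 5 of 9 tested rose, compared with 2.8% of all genes called higher. It was 109 to 233 CPM in the libraries labelled KO and 129.7 to 184 CPM in Cre control libraries, with 0 of 12 called, compared with 1.39% of all genes. Lyz2, which encodes the lysozyme of macrophages, had 4.31, 4.65, 3.72, 2.41 and 6.14 CPM in D370Y, against 1.25, 0.818 and 0.931 CPM in WT libraries. Mpeg1, which B cells also express, made up the largest share of the sum, with means of 82.5 CPM in D370Y and 55.6 CPM in WT libraries. No marker was at 0 in every library of a group, and 3 of the 15 stayed under 1 CPM in all D370Y and 4 in all WT libraries. In bulk RNA, fewer cells of a type and less RNA per cell cannot be told apart, and the part of such cells in the rise of the interferon-stimulated genes was not tested.

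Of 7 plasma cell markers, Prdm1 and Irf4 rose with D370Y, and 1 of 6 rose with ImuBcl6 D370Y, with 2.6% and 2.8% of all genes called higher. Also with ImuBcl6 D370Y, 1 of 3 T cell markers rose, Cd3g (1.45 ± 0.28, limma adjusted p = 0.00927), and 1 of 2 markers of stroma and endothelium, Pecam1 (0.42 ± 0.12, adjusted p = 0.0455), and neither list had a call in the D370Y or KO comparison. Another T cell marker had a change of -0.26 there, with a limma unadjusted p below 0.05. The summed T cell markers were 203 to 264 CPM in ImuBcl6 D370Y and 223 to 309 CPM in ImuBcl6 libraries, so the list did not move 1 way. Both testable markers of plasmacytoid dendritic cells, the main producers of type I interferon, were not called in any pair, and the 3 NK cell markers stayed under 1 CPM throughout. Germinal center markers summed to 2784 to 3023 CPM in D370Y and 3236 to 3399 CPM in WT libraries, with 2 of 9 called lower, compared with 0.943% of all genes. Their sums were 2072 to 2589 CPM in ImuBcl6 D370Y and 2833 to 3091 CPM in ImuBcl6 libraries, with 3 of 9 called lower, compared with 5.38% of all genes. In the third pair the sums were 1883 to 2415 CPM in the libraries labelled KO and 2462 to 2705 CPM in Cre control libraries, with 1 of 9 called lower, compared with 0.913% of all genes. The part of these shifts in the interferon-stimulated genes was not tested.

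**Figure D4:**
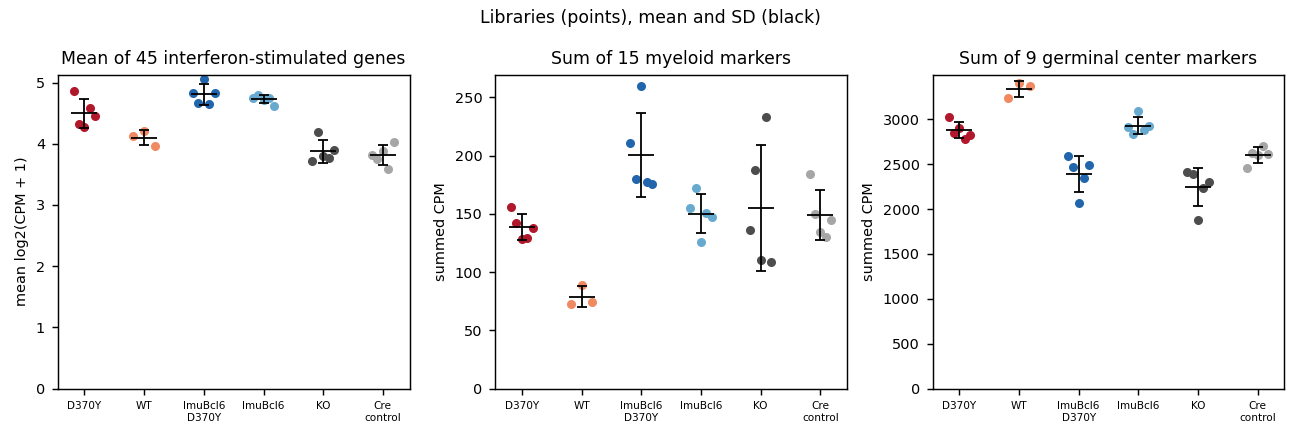
Mean log2(CPM + 1) of 45 interferon-stimulated genes, summed CPM of 15 myeloid markers and summed CPM of 9 germinal center markers in every library (points) of the 6 groups, with mean and SD in black. The 5 D370Y libraries lie above the 3 WT libraries in the first and second panels and below them in the third.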

How the data were processed

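RNA-seq of germinal center B cells was deposited as 1 table of CPM per library for 28 libraries in 6 genotype groups. Trizol and an RNeasy kit were used for RNA extraction, per the labels' protocols. Per the submitters' processing notes, reads were aligned with STAR to mm10. Not given in the sources used here are the counting of reads over genes, its annotation and its use of strand, so genes with near-identical copies may share reads. The CPM that the authors deposited were whole multiples of 1 read for 100% of values, within 0.01 read, so whole reads could be recovered for the count tools. Libraries held 19022495 to 37700121 reads on listed genes, and no pair of libraries agreed within sampling noise.

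A gene entered a fit when it had at least 1 CPM in a number of libraries equal to the smallest group there, and its log2(CPM + 1) was tested with limma 3.58.1 (trend, robust, R 4.3.3), two-sided, with Benjamini-Hochberg adjustment over all genes tested. Fold changes on this scale understate the change of low genes. Each of 3 alleles was fitted with its own control, and 2 differences of effects came from fits of 4 groups. The 3 comparisons share no library. The limma test was also run on simulated counts with 200 genes changed, by 1.5-fold or 2-fold. The outcome is not reported here, and the simulation held no shift shared by many genes of 1 library. Alternatives were a pseudocount of 0.25, no filter on low values, CPM over the listed genes, TMM scaling, edgeR 4.0.16 and DESeq2 1.42.0 on whole reads. Further alternatives were 1 fit of all libraries, a replicate block and leaving out each library. Xist as a covariate was fitted only in the KO comparison. No fit of the D370Y or ImuBcl6 D370Y comparison was adjusted for sex, since Xist splits those groups completely. In all, 0 other per-sample columns were left aside.

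Members, gene lists and tests were chosen with earlier results of these data known. All members are accounted for. Values of every library are given for members called in any comparison and for 18 further or overlapping members fixed by name, and up to 4 called genes are named per wider list. Eif2ak2 and Samd9l were added after their values were seen.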

Additional observations from a re-analysis of the deposited data

Results flagged for a closer look

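Of 105 groups of a named member tested, 10 held a library set apart from the others of its group, where chance gives about 1 in 20, or 5.25. ImuBcl6 D370Y replicate 3 was highest for Isg15 (13.9 CPM), Mx1 (9.08 CPM) and Cxcl10 (6.16 CPM). D370Y replicate 1 was highest for Isg15 (11.4 CPM). KO replicate 2 was highest for Irf9 (63.3 CPM). In the libraries labelled KO, replicate 3 was lowest for Tap1 (256 CPM) and Psmb8 (365 CPM). Irf7 was highest in ImuBcl6 D370Y replicate 5 (53.5 CPM) and lowest in ImuBcl6 replicate 1 (44.9 CPM). Oasl2 was lowest in ImuBcl6 replicate 5 (10.3 CPM). The KO effect on Cxcl10 was lower than the D370Y effect, with a difference of -1.24 on the log2(CPM + 1) scale (limma adjusted p = 0.0264).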

How the results depend on the processing

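With D370Y, 7 members rose as reported; the count was 4 without a filter on low values, 14 with DESeq2, 15 with the replicate block, and 2 to 10 when 1 library was left out, while 0 fell under each of these. With ImuBcl6 D370Y, 4 rose (2 to 5 with 1 library left out) and 1 fell (0 without a filter and in 1 fit of all 28 libraries, 0 to 2 with 1 library left out). In the KO comparison the 1 rise became 0 with a pseudocount of 0.25, without a filter, with CPM over the listed genes, with TMM scaling, with edgeR and in 1 fit of all libraries, and 3 with Xist as a covariate (0 to 1 with 1 library left out, with 0 falls throughout). The difference of D370Y effects between backgrounds, with 0 calls, gave 2 with a pseudocount of 0.25, 1 with edgeR and 4 with DESeq2 (0 to 3 with 1 library left out). The KO minus D370Y difference, with 1 call, gave 0 without a filter, with CPM over the listed genes, with edgeR and in 1 fit of all libraries, and 2 with DESeq2 and with the replicate block (0 to 2 with 1 library left out). The causes of these moves were not tested.

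Medians of the members stayed within their spread between libraries: with 1 library left out they were 0.27 to 0.43 with D370Y, 0.02 to 0.09 with ImuBcl6 D370Y and -0.08 to 0.05 in the KO comparison. Of the values of single members under other settings, 792 kept their side of the threshold, 20 lost and 13 gained a call. With 1 library left out the same numbers were 1253, 37 and 14, and no value changed its direction while called. Correlations of same-numbered libraries ran from -0.28 to 0.51, so a pairing by replicate number was not assumed in the main fits. In a single comparison, the block kept only replicate numbers found in both groups. Against WT this left out D370Y replicates 4 and 5, so the 15 members and 754 genes called there rest on fewer libraries. Low genes limit the KO comparison, where 6 of 45 members were under the filter.

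Over all genes, 376 calls with D370Y became 219 without a filter, 249 in 1 fit of all libraries, 659 with DESeq2 and 754 with the block, and 882 with ImuBcl6 D370Y became 1378 with DESeq2. The 146 calls of the KO comparison became 86 without a filter, 236 with CPM over the listed genes, 238 with edgeR, 455 with DESeq2, 279 in 1 fit of all libraries and 402 with Xist as a covariate. The 74 calls of the difference between backgrounds became 49 without a filter and 184 with DESeq2. The 16 calls of the KO minus D370Y difference became 5 with edgeR, 43 with DESeq2 and 64 with the block. With 1 library left out, the D370Y count ranged from 124 to 473 and was 149, 148 and 124 without WT replicates 1, 2 and 3. The ImuBcl6 D370Y count ranged from 434 to 1016 and was 546 and 501 without ImuBcl6 D370Y replicates 2 and 3 and 434 without ImuBcl6 replicate 3. The KO count ranged from 87 to 449 and was 449 without KO replicate 3 and 87 and 90 without Cre control replicates 2 and 3. The difference between backgrounds ranged from 31 to 110 (31 without WT replicate 3 and 33 without WT replicate 1), and the KO minus D370Y difference from 7 to 63 (7 without WT replicate 1 or 3 and 63 without D370Y replicate 5).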
